A study of Rattus norvegicus with 24 samples.

Results

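The Ms4a family of macrophage membrane proteins was followed across spatially profiled skin wounds through 5 targets, Ms4a4a, Ms4a6b, Ms4a6c, Ms4a6d and Ms4a7, matched by name among the 19962 gene targets of each file. The 5 names were selected from these data with results of them known: Ms4a4a was known to be lower in Gel than in Sham wounds and higher in CuNZ@Gel than in Gel wounds. Its treatment differences are therefore given as a description, without a test, while the comparison of segments was tested.

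The wounds were made in male SD rats, given streptozotocin (STZ) at 5 weeks of age to induce diabetes, as full-thickness defects of 8 mm, splinted or sutured against contraction. All 3 groups carried this diabetic wound and were taken on day 7: Sham, Gel (a hydrogel) and CuNZ@Gel (a hydrogel whose labels give no composition). Each group held 2 numbered specimens, each specimen 2 regions (named "mac" in the titles) and each region 2 segments, 24 areas in all, read by GeoMx, in which indexed probe tags are released by light from a chosen area of a fixed section and sequenced. The labels name neither the fluorescent markers nor what sets Segment 1 apart from Segment 2. They do not say that a specimen is an animal, so p-values refer to these specimens only. The spread behind those p-values was largely borrowed from all targets.

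MS4A proteins cross the membrane several times, and the best known of them is the B cell antigen CD20, encoded by Ms4a1. Several members are expressed by macrophages, monocytes and microglia, where they sit beside other surface receptors and tune their signals. Ms4a4a is known from alternatively activated and resident-type macrophages, in which its product associates with the fungal receptor Dectin-1. Ms4a7 and the Ms4a6 genes are used as macrophage and microglia genes in mouse tissue, and the rodent Ms4a6 genes are close copies of one another.

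The rat annotation GRCr8 lists 23 Ms4a genes in a row on chromosome 1. Ms4a7 and Ms4a4a follow one another there with 0 annotated genes between them, and Ms4a4c, Ms4a6c and Ms4a6b lie further along the row. Ms4a4a was the 1 member that stood above background in these wounds, and its neighbour Ms4a7 passed the negative probe in the fewest areas of the 5, so the 250 bases upstream of the RefSeq start of each are shown, 5′ to 3′ on the strand of the gene, at chr1:217495454-217495703 (plus strand) for Ms4a4a and at chr1:217409644-217409893 (minus strand) for Ms4a7. Capitals mark the motif matches found:
Ms4a4a: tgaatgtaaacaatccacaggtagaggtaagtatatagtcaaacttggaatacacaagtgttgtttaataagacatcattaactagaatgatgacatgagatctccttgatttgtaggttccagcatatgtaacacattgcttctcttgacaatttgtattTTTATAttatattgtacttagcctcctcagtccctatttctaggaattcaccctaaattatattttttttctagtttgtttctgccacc
Ms4a7: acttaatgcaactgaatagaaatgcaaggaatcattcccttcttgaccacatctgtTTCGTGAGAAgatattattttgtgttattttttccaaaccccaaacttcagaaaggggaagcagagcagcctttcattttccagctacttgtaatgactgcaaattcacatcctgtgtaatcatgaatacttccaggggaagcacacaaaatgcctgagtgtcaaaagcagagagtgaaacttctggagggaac

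The motifs searched on both strands were TATAAA (the TATA box), GAGGAA (the core bound by PU.1, the main myeloid transcription factor) and TTC and GAA with any 4 bases between them (the half-sites bound by STAT6, which read the same on both strands). Ms4a4a held 1 match, TATAAA on the minus strand, starting 89 bases before the start. Ms4a7 held the spaced TTC and GAA, starting 194 bases before it. Of 33469 RefSeq windows of the same length, 12.9% held TATAAA, 23.3% GAGGAA and 6.25% the spaced pair. The matches are a description of these letters only.

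Values are given as deposited, a signal scaled so that the 75th percentile of an area was 12.3 in the median area. Whole counts could be recovered from them, and totals ran from 86385 to 1476499 counts per area (median 340370), with Segment 2 shallower in 11 of 12 regions. Because target names follow mouse genes and the tissue is rat, probes for 1116 smell and pheromone receptors, which skin should not use, served as a yardstick: the level that only the top 1% of them passed was the background of an area (11.4 to 21.6, median 14.3). Targets that passed it in 4 or more areas, 5554 in all, are called above background. The labelled skin wound was checked against markers: fibroblast genes and 9 of 20 macrophage genes were above background, while 0 of 7 keratinocyte, 0 of 7 mast cell and 0 of 7 B and plasma cell genes were.

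Of the 5 Ms4a targets, only Ms4a4a was above background. In Sham specimen 1 its signal was 88.0 in Segment 1 and 39.9 in Segment 2 of region 1, and 112.5 and 73.6 in region 2. In Sham specimen 2 it was 79.1 and 47.0 in region 1, and 51.2 and 38.8 in region 2. All 8 Sham areas exceeded their own background.

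In Gel specimen 1 the Ms4a4a signal was 5.66 in Segment 1 and 1.36 in Segment 2 of region 1, and 7.49 and 5.07 in region 2. In Gel specimen 2 it was 2.11 and 2.04 in region 1, and 3.07 and 2.04 in region 2. None of the 8 Gel areas (0 of 8) exceeded its background, and the recovered counts behind these values were 1 to 12 per area. Ms4a4a in Gel was thus not told apart from targets that should be silent in skin: its median was 0.868 times the negative probe, against 20.0 times for Sham and 8.88 times for CuNZ@Gel.

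In CuNZ@Gel specimen 1 the Ms4a4a signal was 31.5 in Segment 1 and 12.3 in Segment 2 of region 1, and 33.7 and 31.5 in region 2. In CuNZ@Gel specimen 2 it was 48.1 and 24.5 in region 1, and 36.0 and 27.3 in region 2. Of these areas 7 of 8 exceeded their background. The exception, region 1, Segment 2 of specimen 1, held 4 recovered counts.

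The Gel areas did not overlap with those of either other group. Ms4a4a was selected with its low level in Gel known, so this is a description. The share of all targets whose areas or specimen means separate in these ways was not counted. The highest Gel value was 7.49 and the lowest CuNZ@Gel value 12.3. Sham and CuNZ@Gel areas overlapped, since the highest CuNZ@Gel value, 48.1, lay above the lowest Sham value, 38.8, but their specimen means did not: 78.5 and 54.0 in Sham, 27.3 and 34.0 in CuNZ@Gel, 4.90 and 2.32 in Gel.

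**Figure D1:**
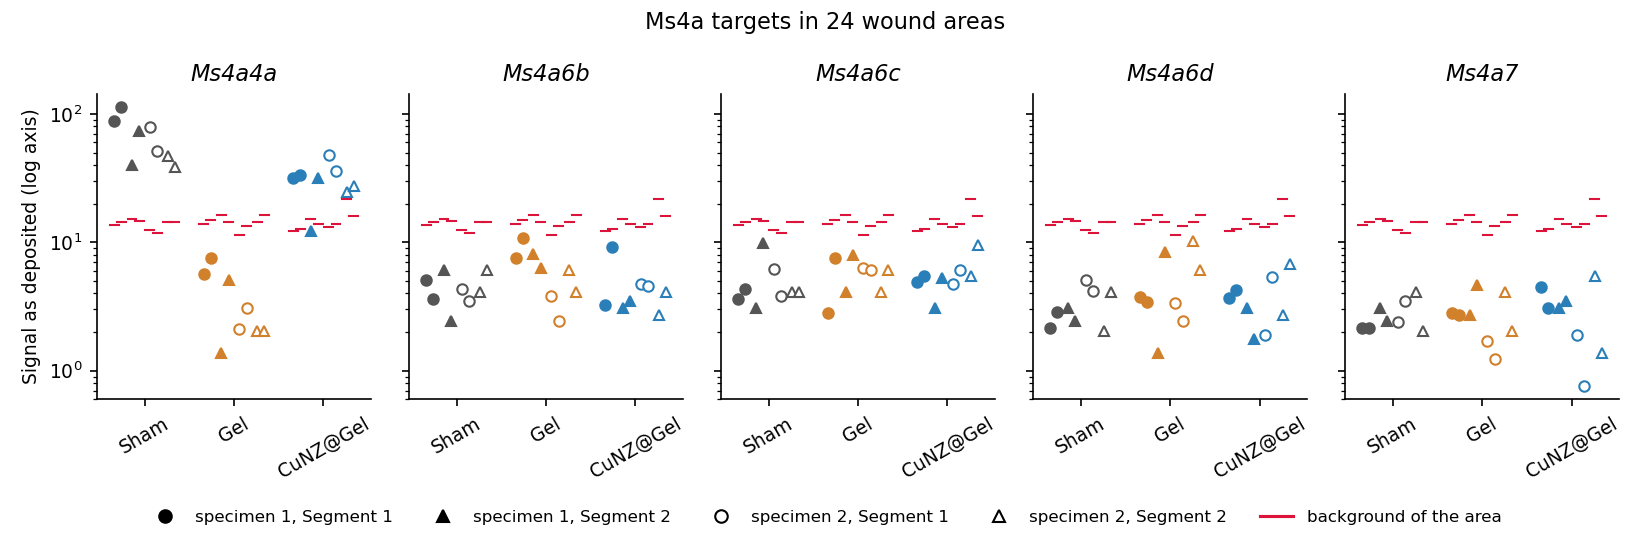
Signal of the 5 Ms4a targets (log axis) in each of the 24 areas by treatment. Filled symbols are specimen 1 and open symbols specimen 2, circles Segment 1 and triangles Segment 2, and red dashes are the background of the same area. Ms4a4a lies above the dashes in 8 of 8 Sham, 0 of 8 Gel and 7 of 8 CuNZ@Gel areas, and the other 4 targets lie below them in every area.

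As means over specimens (± SD, n = 2) the Ms4a4a signal stood at 66.3 ± 17.3 under Sham, at 3.61 ± 1.83 under Gel and at 30.6 ± 4.76 under CuNZ@Gel. The Sham mean was 18.4 times that of Gel and 2.16 times that of CuNZ@Gel, and the CuNZ@Gel mean was 8.49 times that of Gel. The first and last of these ratios set a measured level against background. On the scale of log2(signal + 1) the difference was -3.91 for Gel against Sham, -1.07 for CuNZ@Gel against Sham and 2.83 for CuNZ@Gel against Gel (SE 0.23 each, from limma). The SE rests on an SD of 0.230 moderated over all targets, while the SD of Ms4a4a itself between specimens was 0.377.

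The comparisons share specimens (Sham in the first pair, Gel in the first and last), so they are not independent of each other. The number of members past the threshold used for all targets, 1 of 5 (Ms4a4a) in each of these comparisons, was fixed by the selection and is no test. All 19728 targets tested went through limma with Benjamini-Hochberg adjustment. The called share was 2.42% for Gel against Sham, 1.31% for CuNZ@Gel against Sham and 0.943% for CuNZ@Gel against Gel. Over the 5554 targets above background the called share was 7.85%, 4.34% and 3.24% in the same order. In the areas, fewer cells carrying the transcript and less of it per cell cannot be told apart.

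The other 4 members stayed below background in all areas (0 of 24 each). Ms4a6b, Ms4a6c and Ms4a6d, the close copies, ranged from 2.45 to 10.9 (median 4.21), from 2.83 to 9.81 (median 5.08) and from 1.36 to 10.2 (median 3.40). Ms4a7 ranged from 0.767 to 5.45 (median 2.73). They exceeded the negative probe in 18, 21, 13 and 5 areas, against 19 areas for Ms4a4a.

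For Gel against Sham the log2 difference was 0.35 (SE 0.30) in Ms4a6b, 0.19 (SE 0.29) in Ms4a6c, 0.34 (SE 0.30) in Ms4a6d and -0.03 (SE 0.28) in Ms4a7. For CuNZ@Gel against Sham the values were -0.04, 0.18, 0.10 and -0.01 in the same order. For CuNZ@Gel against Gel they were -0.39, -0.01, -0.24 and 0.02. At background, these values do not show whether the transcripts changed.

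All 18 other targets of the superfamily were below background in every area, 16 named Ms4a and the related Tmem176a and Tmem176b. Ms4a4c, next to Ms4a4a in the rat order, exceeded the negative probe in 23 areas, more than any other of the 18, with a median of 9.46. Of the 17 that were tested, limma called 0 in any comparison. At an unadjusted p under 0.05 it took 1 for Gel against Sham, 1 for CuNZ@Gel against Sham, 2 for CuNZ@Gel against Gel, 2 between the segments and 1 for treatment by segment, and edgeR on recovered counts called 0. Probe sequences were not used here, so reads shared between near-identical members, and a probe that reads rat RNA poorly, could not be checked. Ms4a6d is the 1 member whose name is not a rat symbol in GRCr8.

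The summed signal of macrophage genes did not follow the order of Ms4a4a across treatments. The list had 20 genes, 9 of which were above background, among them Cd68 (a lysosomal glycoprotein), Csf1r (the CSF-1 receptor), Lyz2 (lysozyme), the complement genes C1qa, C1qb and C1qc, Laptm5 and the tetraspanin gene Cd53. The other 11 were above background in 0 areas, among them Adgre1, Itgam, Aif1 and Ptprc, which are widely used to mark macrophages or leukocytes. Of the 9 detected genes, only Csf1r and Laptm5 had the order of Ms4a4a by their medians. In Sham, CuNZ@Gel and Gel these were 181, 130 and 120 for Csf1r and 97.1, 81.8 and 74.5 for Laptm5. The summed signal of the 20 genes ran from 1030 to 1890 in Sham (median 1669), from 1312 to 2134 in Gel (median 1470) and from 1122 to 1505 in CuNZ@Gel (median 1273), and the groups overlapped.

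Set against the 9 detected genes, Ms4a4a was lower in every Gel area than in any area of the other groups. Its log2 level minus their mean log2 level had a median of -0.74 in Sham (-1.90 to -0.40), -5.30 in Gel (lowest -5.88, specimen medians -4.19 and -5.41) and -1.53 in CuNZ@Gel (-2.75 to -0.78). The mean log2 level of the 9 genes itself had medians of 7.13, 7.03 and 6.46. As that mean differed little between Sham and Gel, the relative values restate the difference known when Ms4a4a was selected. The part of macrophage content in it was not tested. Relative values of Sham and CuNZ@Gel areas overlapped.

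**Figure D2:**
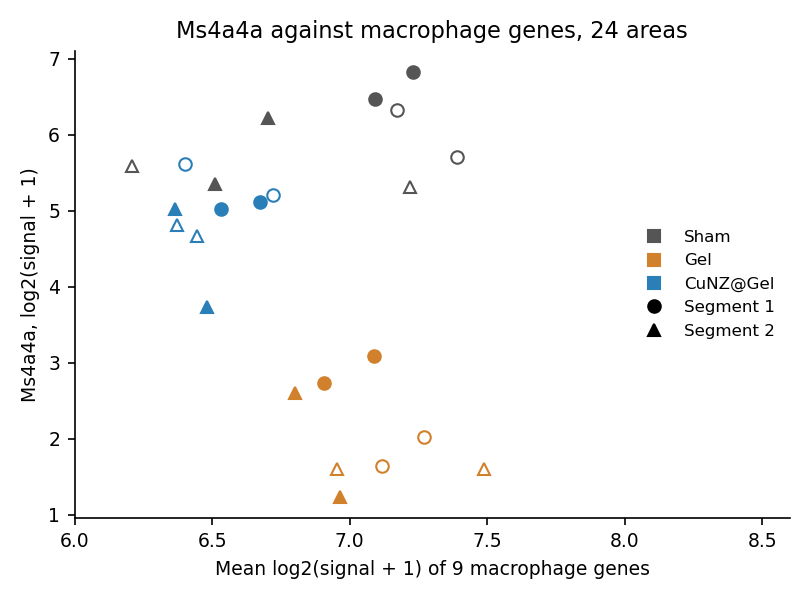
Ms4a4a against the mean of 9 macrophage genes, both as log2(signal + 1), in the 24 areas. Colours are treatments, circles Segment 1 and triangles Segment 2, filled symbols specimen 1 and open symbols specimen 2. Gel areas share the range of the Sham areas on the horizontal axis (medians 7.03 and 7.13) and lie below all others on the vertical axis.

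Between Gel and Sham 1 of the 20 macrophage genes rose and 0 fell. It was C1qb, from a median of 48.3 in Sham to 123.0 in Gel (log2 difference 1.46, SE 0.22, limma adjusted p = 2.7e-07), a call lost when linear values were averaged (adjusted p = 0.136). The median difference of the 9 detected genes was -0.20, against -0.15 over all targets above background. Between CuNZ@Gel and Sham C1qb (-3.28) was among the genes that fell, and Lyz2 (0.71) rose. The C1qb median in CuNZ@Gel was 3.68, with 1 of 8 areas above background, so its differences from CuNZ@Gel set a measured level against background. Between CuNZ@Gel and Gel C1qb was the 1 macrophage gene called, lower in CuNZ@Gel (-4.74, SE 0.22), where Ms4a4a was higher. C1qa (0.14, SE 0.20) and C1qc (0.65, SE 0.23), which encode the other chains of C1q, did not pass the test between CuNZ@Gel and Sham. Nor did they pass it between CuNZ@Gel and Gel (-0.11 and -0.13). The Lyz2 call was lost in 7 of 18 alternatives, among them the omission of Sham specimen 1 (0.48) or of each of the CuNZ@Gel specimens (0.74 and 0.67).

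Of 18 genes of alternatively activated and resident-type macrophages, 5 were above background. Between Gel and Sham 1 rose, F13a1, the A chain of coagulation factor XIII, and 0 fell. F13a1 had a median of 5.17 in Sham, with 0 of 8 areas above background, and of 17.8 in Gel, with 6 of 8 (log2 difference 1.56, SE 0.27, limma adjusted p = 1.4e-05). The call was lost in 2 of 18 alternatives, without Gel specimen 1 (1.03, adjusted p = 0.0770) and after thinning (2.00, adjusted p = 0.0939). Between CuNZ@Gel and Sham 2 of the 18 fell, Arg1, which encodes arginase (-1.84), and Mrc1, the mannose receptor CD206 (-0.81), and 0 rose. The Arg1 call was lost in 5 of 18 alternatives, none of them the omission of a specimen. The Mrc1 call was lost without any 1 of the Sham or CuNZ@Gel specimens (-0.92 to -0.71). Ms4a4a and Mrc1 moved apart between CuNZ@Gel and Gel: Ms4a4a was higher by 2.83 and Mrc1 lower (-1.14, SE 0.20, limma adjusted p = 1.5e-05).

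Of 15 receptors and adaptors of the Dectin-1, Trem2 and Fc receptor pathways, 4 were above background: Fcer1g, Lyn, Plcg2 and Hcst. Lyn, a Src-family kinase, fell between Gel and Sham (-0.65, SE 0.19, limma adjusted p = 0.0422), from a median of 63.8 to 39.3. That call was lost in 12 of 18 alternatives, including the omission of any single specimen (-0.80 to -0.51). Limma called 0 of the 15 in the other treatment comparisons, with 2 and 1 at an unadjusted p under 0.05 against Sham and against Gel, and edgeR 0. Clec7a, which encodes Dectin-1, was not above background. Of 10 monocyte genes 8 were in the files and 2 above background. limma called 0 of them in the treatment comparisons, with 2, 1 and 0 at an unadjusted p under 0.05, and edgeR 0.

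**Figure D3:**
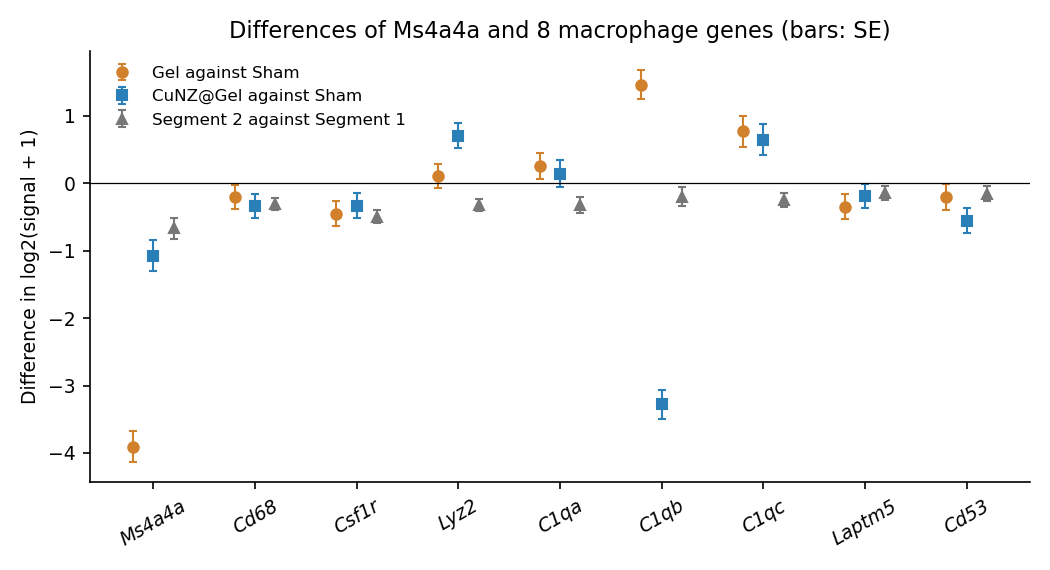
Log2 differences of Ms4a4a and 8 macrophage genes above background for Gel against Sham, CuNZ@Gel against Sham and Segment 2 against Segment 1. Bars are the SE from limma. Ms4a4a (-3.91) lies below all 8 genes between Gel and Sham, the lowest of which is Csf1r (-0.45), and C1qb (-3.28) is the gene farthest below 0 between CuNZ@Gel and Sham.

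The summed signal of the fibroblast markers had the treatment order of Ms4a4a, while limma called few of the single markers. All 8 markers were in the files, and 5 to 8 of them exceeded background in an area. Their summed signal ran from 3613 to 6859 in Sham (median 4073), from 762 to 2443 in Gel (median 1959) and from 1975 to 3179 in CuNZ@Gel (median 3002). Between Gel and Sham 2 of the 8 fell, Fap (-1.32) and Lum (-1.13), and between CuNZ@Gel and Sham both also fell (-1.02 and -0.80). For Gel against Sham limma had 6 of the 8 at an unadjusted p under 0.05, and edgeR called 4. Between CuNZ@Gel and Gel limma called 0 of the 8, with 1 at an unadjusted p under 0.05, and edgeR called 2. The Fap call between CuNZ@Gel and Sham was lost in 4 of 18 alternatives, among them edgeR (adjusted p = 0.0554), which called 0 of the 8 there. The Lum call between CuNZ@Gel and Sham was lost in 8 of 18 alternatives, among them the omission of any Sham or CuNZ@Gel specimen (-0.84 to -0.76). Over the 6 above background the median difference was -1.27 and -0.63. The part of fibroblast RNA in the Ms4a4a differences was not tested. The summed signals of the T cell, neutrophil, dendritic cell and endothelial lists, with 3, 1, 3 and 1 genes above background, overlapped between all 3 treatments. Of the 8 T cell markers, limma called 1 in each treatment comparison. Cd2, a T and NK cell adhesion receptor, was lower than in Sham in Gel (-1.04, SE 0.28) and in CuNZ@Gel (-1.09, SE 0.28), and both calls were lost without Sham specimen 1 (-0.57 and -0.62). The first was also lost without Gel specimen 2 (-0.88) and the second without CuNZ@Gel specimen 1 (-0.75). In all, they were lost in 5 and 6 of 18 alternatives, thinning among them. Cd2 exceeded background in 4 of 8 Sham, 1 of 8 Gel and 2 of 8 CuNZ@Gel areas (medians 14.3, 7.47 and 8.82). A level near background was thus set against background. Cd3e, a chain of the T cell receptor complex, was lower in CuNZ@Gel than in Gel (-1.09, SE 0.28). Cd3e passed background in 4 of 8 Gel (median 13.1), 0 of 8 CuNZ@Gel (median 6.5) and 0 of 8 Sham areas. A level near background was thus set against background. The Cd3e call was lost in 8 of 18 alternatives, among them edgeR (adjusted p = 0.0618). Among them too were the omission of Gel specimen 2 (-0.91) or of either CuNZ@Gel specimen (-0.92 and -1.26). The part of T cell RNA in the Ms4a4a differences was not tested.

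By Pearson correlation over the 24 areas, the 5 of 5553 other targets above background most like Ms4a4a were C1qtnf3 (r = 0.92), Wnt4 (0.90), Hs6st1 (0.90), Thbs2 (0.90) and Fam20c (0.89). The areas share specimens and fall into 3 treatments, so these values are a description. With the mean of each treatment and segment taken out, r was 0.03, 0.23, 0.33, -0.01 and 0.21, so little of the likeness was left within groups. C1qtnf3, a secreted C1q and TNF related protein, had medians of 113.8 (Sham), 3.23 (Gel) and 27.0 (CuNZ@Gel). Thbs2, the matrix protein thrombospondin 2, had medians of 726, 110.4 and 408. Wnt4, a secreted Wnt ligand, had medians of 37.4, 9.16 and 24.3.

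The segments were compared over specimens with the specimen as a block. Ms4a4a was lower in Segment 2 in 12 of 12 regions, by a log2 difference of -1.50 to -0.03 (median -0.55). The -1.50 is from Gel specimen 1, region 1, where Segment 2 held 1 recovered count, the lowest value of its area. Segment 2 also held 1 count in both regions of Gel specimen 2, so these differences are not measured decreases. In Sham the range was -1.12 to -0.39 and in CuNZ@Gel -1.29 to -0.09. In Sham the specimen means were 82.7 ± 24.8 in Segment 1 and 49.8 ± 9.76 in Segment 2, in Gel 4.58 ± 2.82 and 2.63 ± 0.83, and in CuNZ@Gel 37.3 ± 6.69 and 23.9 ± 2.82 (SD, n = 2). The fitted difference was -0.67 (SE 0.16, limma adjusted p = 0.00895). It was the 1 member of 5 called, against 1.93% of all targets tested.

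**Figure D4:**
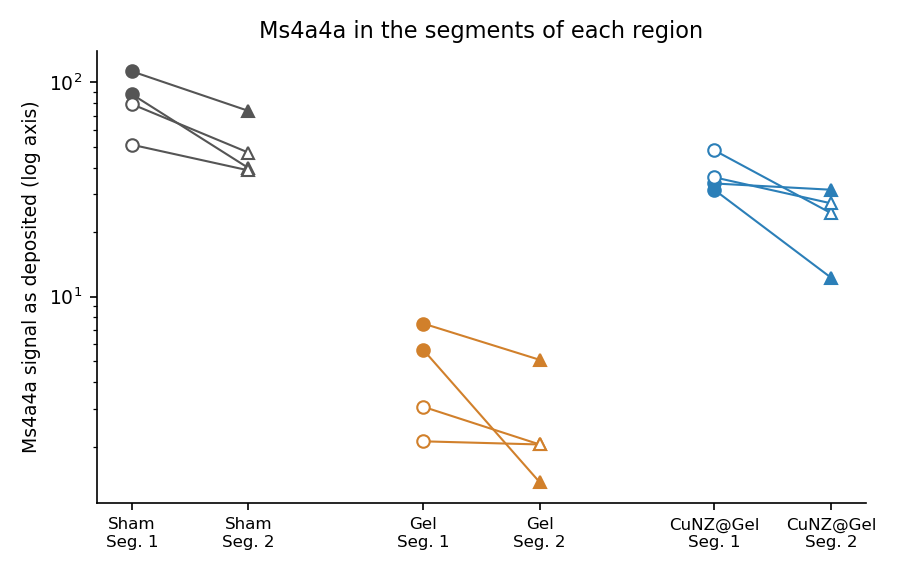
Ms4a4a signal (log axis) in Segment 1 and Segment 2 of the 12 regions, 4 per treatment. Each line joins the segments of 1 region, with filled symbols for specimen 1 and open symbols for specimen 2. All 12 lines fall towards Segment 2, and the Gel lines lie in the range of background (1.36 to 7.49).

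Depth moved with this difference. Segment 1 areas held 322151 to 1476499 counts (median 533134) and Segment 2 areas 86385 to 688507 (median 170040), and a median of 2.19% and 28.5% of targets stood at 1 count. Of the 5554 targets above background 305 were called between the segments (5.49%), all of them lower in Segment 2 (0 higher), with a median difference of -0.20. After thinning every area to the depth of the shallowest, the Ms4a4a difference was -0.84 and no longer passed (adjusted p = 0.411), and under quantile normalization it was -0.61 (adjusted p = 0.0547). The call was also lost without Sham specimen 1 (-0.63, adjusted p = 0.0567). Without the Gel specimens, in which Ms4a4a was at background, it was -0.70 (adjusted p = 0.0105).

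Among the macrophage genes Csf1r (-0.49, SE 0.10, limma adjusted p = 6.9e-04) and Lyz2 (-0.33, adjusted p = 0.0311) fell towards Segment 2, 2 of 20, with 0 higher. Of the alternatively activated list Stab1, the scavenger receptor stabilin-1 (-0.55, adjusted p = 0.00133), and Mrc1 (-0.56, adjusted p = 0.00385) fell, 2 of 18, with 0 higher. The Csf1r, Stab1 and Mrc1 calls were each lost under thinning, and the Mrc1 call also without Sham specimen 1 (-0.41). The Lyz2 call was lost in 11 of 19 alternatives, among them the omission of either Sham specimen (-0.31 and -0.27), Gel specimen 1 (-0.30) or CuNZ@Gel specimen 1 (-0.30). The median difference was -0.25 over the 9 macrophage genes above background and -0.20 over all targets above background. Of the 8 fibroblast genes Thy1 (-0.63) and Col1a1 (-0.43) fell. The Col1a1 call was lost in 8 of 19 alternatives and the Thy1 call in 2. Among those of Col1a1 were thinning (-0.38), quantile normalization (-0.24) and the omission of Sham specimen 2 (-0.36) or Gel specimen 1 (-0.32). The 8 had a summed signal of 1638 to 6859 in Segment 1 (median 3071) and of 762 to 5069 in Segment 2 (median 2677). The part of this signal in the Ms4a4a difference was not tested.

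The other 4 members did not pass the test between the segments. The log2 difference was -0.09 (SE 0.23) in Ms4a6b, 0.04 (SE 0.22) in Ms4a6c, 0.10 (SE 0.23) in Ms4a6d and 0.31 (SE 0.22) in Ms4a7, with limma adjusted p from 0.501 to 0.952. Ms4a7 was higher in Segment 2 in 9 of 12 regions, all of its values lying below background. In CuNZ@Gel specimen 2, region 2, both segments held 1 recovered count, which was worth 0.767 in Segment 1 and 1.36 in Segment 2. Segment 2 also held 1 count in both regions of Sham specimen 1 and in region 2 of Gel specimen 2. Such values are the lowest of their area.

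Whether the segment difference depended on treatment was asked by the interaction. The median log2 difference of Ms4a4a over the 4 regions of a treatment was -0.67 (Sham), -0.45 (Gel) and -0.67 (CuNZ@Gel), and the limma adjusted p of the interaction was 0.997. For the other members it was 0.933 to 0.998. limma called 0 of the 5 members, also 0 at an unadjusted p under 0.05, and edgeR 0, against 0.0507% of all targets in limma. With 2 specimens a group, this does not show that the segment difference was alike in the 3 treatments.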

How the data were processed

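The 24 deposited tables give a signal per target. Which counter, probe filter and scaling were used is not given in the sources used here. A scaling by the authors to the 75th percentile would give such values. Divided by the lowest value of their area, 99.98% to 99.995% came within 0.01 of a whole number, which gives the recovered counts. Members, lists and tests were chosen with earlier results of these data known.

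Signals were analysed as log2(value + 1), which understates changes of low targets, for the 19728 targets that passed the negative probe in 4 or more areas. For treatments the 4 areas of a specimen were averaged, leaving 6 specimens and 3 residual degrees of freedom. For segments the 2 regions of a specimen were averaged with the specimen as a block. R 4.3.3 with limma 3.58.1 (lmFit, then eBayes, trended and robust) gave Benjamini-Hochberg adjusted p-values over all targets, threshold 0.05. A typical target's spread rested on 133.5 prior degrees of freedom for treatments, so p-values may be too small. The named genes were the 5 members, superfamily targets above background, the 5 targets most like a detected member, and up to 4 called genes per list and comparison with the smallest p.

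edgeR 4.0.16 on the recovered counts called 369 targets between Gel and Sham, 165 between CuNZ@Gel and Sham, 138 between CuNZ@Gel and Gel and 340 between segments, and 4 for the interaction. Depth, and the number of targets at 1 count, limit the low values. Other alternatives covered the scaling, filter, pseudocount, averaging, blocks, thinning and the omission of each specimen. The fits were tested on simulated data with known changes. Those data had no spread between specimens beyond that between areas, so they do not show whether the treatment p-values are too small. Target names were matched to RefSeq (GRCr8): 4 of the 5 members and 14 of the 18 other superfamily targets are rat symbols. Python 3.11.15 was used for tables and figures. Of the listed genes, 1 is not reported here.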

Additional observations from a re-analysis of the deposited data

Results flagged for a closer look

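Of 45 groups of member values checked for a single distant area, 1 held one, where chance flags about 1 group in 20. It was Ms4a6b in CuNZ@Gel, where Segment 1 of region 2 in specimen 1 stood at 9.20, far above the other 7 areas (Dixon ratio 0.575, n = 8), and still below the background of its area.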

How the results depend on the processing

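Under the alternatives tried, the treatment differences of Ms4a4a kept their direction, between -4.46 and -3.00 for Gel against Sham, -1.32 and -0.73 for CuNZ@Gel against Sham and 2.03 and 3.72 for CuNZ@Gel against Gel. Its segment difference was called in 15 of 19. It was -0.61 under quantile normalization, -0.84 after thinning and -0.67 in limma without trend and robust, where it missed the threshold (adjusted p from 1.8e-04 to 0.411 over all alternatives), and -0.76 to -0.60 on leaving out 1 specimen, lost without Sham specimen 1. The number of targets called changed more. Gel against Sham gave 208 after thinning, 176 in limma without trend and robust and 199 after division by the negative probe (an alternative added after the data were seen), and 271 to 752 on leaving out 1 specimen. CuNZ@Gel against Sham gave 162 under quantile normalization, 102, 44 and 73 under those same 3, 165 with edgeR, and 72 to 458. CuNZ@Gel against Gel gave 116, 75 and 69 under the 3, and 95 to 293. The segments gave 130 under quantile normalization, 246 on recovered counts scaled to the area total, 21, 0 and 2721 under the 3 (2458 at an unadjusted p under 0.05 for the 0, which is limma without trend and robust), 167 with no replicate block, 119 without the Gel specimens (also added later), and 198 to 404. The interaction gave 3 with a pseudocount of 5, 1 above the receptor background, 0 in limma without trend and robust, 4 with edgeR, 0 with no replicate block, 3 after division by the negative probe and 0 without the Gel specimens (1005, 751 and 1096 at an unadjusted p under 0.05 for the zeros), and 0 to 36. The cause was not tested. Same-numbered specimens share only a number: their deviations correlated at -0.03 (Sham and CuNZ@Gel), 0.0037 (Sham and Gel) and -0.03 (CuNZ@Gel and Gel), and a replicate block gave 500, 257 and 201 treatment calls. Depth limits Ms4a4a in Gel (1 to 12 counts per area), and the other members lay below background.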
